A study of Mus musculus with 9 samples.

Results

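The transcription factor p53 and 9 of its target genes were followed across 3 genotypes of mouse embryonic stem cells (mESCs). The 10 genes, Trp53 (which encodes p53), Mdm2, Ccng1, Bax, Bbc3, Perp, Fas, Trp53inp1, Phlda3 and Zmat3, are 10 of the 19246 genes with a named probe. They were taken by name from known members of the pathway, and the set was drawn up because its targets stood higher in 1 mutant line than in the other on these same arrays. Their differences between groups are therefore given as a description, with no test.

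p53 is a sequence-specific transcription factor that MDM2, itself a p53 target, keeps at low levels by marking it for degradation. When DNA damage or other stress frees p53 from MDM2, it binds response elements near its target genes and raises their transcription, which halts the cell cycle, aids DNA repair or leads to apoptosis. The control acts largely on p53 protein, so the level of Trp53 mRNA need not follow the activity of the pathway. Mouse embryonic stem cells are known for abundant p53, and for low levels of its cell cycle target p21 while they grow.

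Polyadenylated RNA from 9 samples of E14Tg2a cells, a male mESC line of strain 129P2/OlaHsd grown in serum and LIF, was hybridised to 9 single-colour Agilent arrays. The 3 samples labelled wild type (WT) are the parental cells. The 3 labelled KO are Ring1B-/- cells, derived from the same parental line by deleting exon 3 of Rnf2, the gene for the Polycomb subunit RING1B, on both alleles. The 3 labelled I53A are Ring1B I53A/I53A cells, in which both endogenous alleles encode RING1B with alanine for isoleucine, a change that removes its ubiquitin ligase activity towards histone H2A but leaves the protein in its complex. No agent was added to damage DNA or stabilise p53. The study describes the 3 samples per genotype as biological replicates, without saying whether they were separate cultures. The p-values thus refer to the spread of these samples, which may be partly technical. The sources used here describe 1 line of each mutant genotype for the arrays, so genotype and cell line cannot be told apart.

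All values are log2 fluorescence signals of single probes after quantile normalisation, and group values are means ± SD (n = 3 arrays). Signals of different probes were not compared with each other. Between 45.4% and 57.5% of the probes tested were well above background on an array. The 3 arrays of a group lay in 1 column of the slide, so slide column and group cannot be told apart. Rnf2 itself read 8.35 ± 0.11 in WT, 7.78 ± 0.39 in KO and 8.79 ± 0.27 in I53A, and whether its probe reads the deleted exon is not known here. The 8 pluripotency markers measured were above background on all 9 arrays, with a summed signal from 32738 to 49085 in WT, from 50742 to 53727 in KO and from 29451 to 46955 in I53A. The lowest sums in WT and I53A are incomplete, since outlier spots were left out for Nanog on WT 3 and for Nanog and Tdgf1 on I53A 3. The sums of the groups are therefore not compared. Of the pluripotency markers, Sox2 was called lower in KO (log2 difference −1.03, limma adjusted p 0.0425), and Sox2 and Esrrb lay below WT on every I53A array without passing the test (−0.73 and −1.41, adjusted p 0.356 and 0.213). Nanog, Tdgf1 and Klf4 lay above all measured WT arrays in KO, also without passing it (1.06, 0.95 and 0.67). In I53A the pluripotency markers besides Sox2 and Esrrb overlapped WT. Of 8 fibroblast markers, Lum, Pdgfrb and Postn were at background on all 9 arrays, and the summed signal ran from 480 to 571 in WT, from 536 to 586 in KO and from 538 to 710 in I53A. Thy1 of this list was called higher in KO (1.31, limma adjusted p 0.0156) and lay above WT on every I53A array (1.29, adjusted p 0.0722). Col1a2, Col3a1 and Col1a1 went the other way in KO, below WT on every array (−0.98, −0.77 and −0.57), and none was called. In I53A, Col1a2 lay below WT on every array (−0.95), Col1a1 above it (0.40), and Col3a1 overlapped it, again without a call. Of 6 primitive endoderm markers, 5 were at background on all WT and all I53A arrays and 3 on all KO arrays. Their summed signal ran from 59.2 to 97.4 in WT, from 84.4 to 90.6 in I53A and from 168 to 250 in KO, with Gata4, Gata6 and Sox17 called higher in KO. The part of these markers in the values of the p53 genes was not tested. In such bulk RNA, a change in every cell and a change in the share of cells that express a gene cannot be told apart.

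The probes behind the clearest differences are shown by the leading 30 of their 60 bases, written 5′ to 3′. Perp, Phlda3 and the brighter Trp53inp1 probe carried the highest I53A signals relative to WT, and the dimmer Trp53inp1 probe did not follow the brighter one.
Perp: gaaaatttgggaatgcgtgtctctgaatac
Phlda3: gtaagggttggccctttaccatttcatgct
Trp53inp1, brighter probe: gtgtgtttatgggcacaatgttttctctca
Trp53inp1, dimmer probe: aactcctgtcctggtctcagtgaggcgagt
In the study authors' mapping of the probes, the brighter Trp53inp1 probe matches 2 Ensembl transcripts, and the dimmer probe matches these 2 and 2 more, 4 in all. The probes for Perp and Phlda3 match 1 transcript each.

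The stretch upstream of the transcription start was available in RefSeq's promoter windows (GRCm38.p6, 250 bases before to 50 bases after the start) for 7 of the 10 genes, in 9 windows. Perp, Zmat3 and Trp53inp1 were not among them. Each window was searched on both strands for the p53 half-site, the 10-base unit of which a response element holds a pair. A half-site with no mismatch lay in the windows of 4 genes, Mdm2, Ccng1, Bax and Trp53, and no other motif was searched. The same search found a half-site for 9.55% of the 27025 genes with a window, and in 8.36% of all 32851 windows. These 4 upstream stretches are shown because they hold the match, which is in capitals.
Mdm2, chr10:117710759-117711008, minus strand: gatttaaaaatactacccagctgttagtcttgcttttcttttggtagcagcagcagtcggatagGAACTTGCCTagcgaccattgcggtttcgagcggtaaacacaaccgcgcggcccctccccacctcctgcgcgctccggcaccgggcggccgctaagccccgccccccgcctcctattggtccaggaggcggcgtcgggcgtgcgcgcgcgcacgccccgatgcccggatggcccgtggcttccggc
Ccng1, chr11:40755287-40755536, minus strand: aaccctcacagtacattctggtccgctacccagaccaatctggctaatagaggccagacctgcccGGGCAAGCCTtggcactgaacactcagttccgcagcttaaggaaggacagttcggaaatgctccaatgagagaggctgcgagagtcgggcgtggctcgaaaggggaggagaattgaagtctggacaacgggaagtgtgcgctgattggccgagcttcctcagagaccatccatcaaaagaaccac
Bax, chr7:45466899-45467148, minus strand: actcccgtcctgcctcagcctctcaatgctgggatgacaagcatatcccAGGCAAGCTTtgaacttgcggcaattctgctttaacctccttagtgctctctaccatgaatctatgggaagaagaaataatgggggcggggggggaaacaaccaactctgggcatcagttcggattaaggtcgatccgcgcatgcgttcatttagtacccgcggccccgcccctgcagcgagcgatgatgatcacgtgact
Trp53, chr11:69580109-69580358, plus strand: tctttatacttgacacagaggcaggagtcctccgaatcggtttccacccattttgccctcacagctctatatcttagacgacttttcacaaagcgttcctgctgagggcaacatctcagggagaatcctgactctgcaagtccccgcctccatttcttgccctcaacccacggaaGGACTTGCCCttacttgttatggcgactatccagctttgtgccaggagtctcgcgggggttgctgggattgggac
The match began 186 bases upstream of the start in Mdm2, 185 in Ccng1, 201 in Bax and 75 in Trp53. The well-known p53-responsive promoter of Mdm2 lies in the first intron and is not in this window. When 1 mismatch outside the core C and G was allowed, Bbc3 was added and 5 of the 7 genes had a match, as did 54.2% of all genes with a window. No half-site was found in the windows of Phlda3 and Fas under either rule. A match of letters is not a bound site, and these arrays do not measure binding.

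Trp53 mRNA differed by at most 0.34 between the group means, or by 0.62 with 75th percentile scaling. Its signal was 10.63, 10.70 and 10.51 on the WT arrays, 10.73, 10.95 and 11.18 on the KO arrays and 10.70, 10.66 and 10.88 on the I53A arrays. The I53A arrays overlapped the WT arrays, while all KO arrays lay above all WT arrays. The log2 difference was 0.13 for I53A against WT (SE 0.21), 0.34 for KO against WT and −0.21 for I53A against KO. With 75th percentile scaling the last 2 were 0.62 and −0.46, and on slide 1 alone the first was 0.01 and the last −0.39. Trp53 lies on chromosome 11 (69580348 to 69591873 in GRCm38), whose 1521 measured genes had a median difference of 0.26 in KO against WT, where the 17725 genes of the other chromosomes had −0.03. The part of the chromosome in the KO value of Trp53 was not tested. In I53A against WT the median of chromosome 11 was −0.00 and that of the others −0.00.

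**Figure D1:**
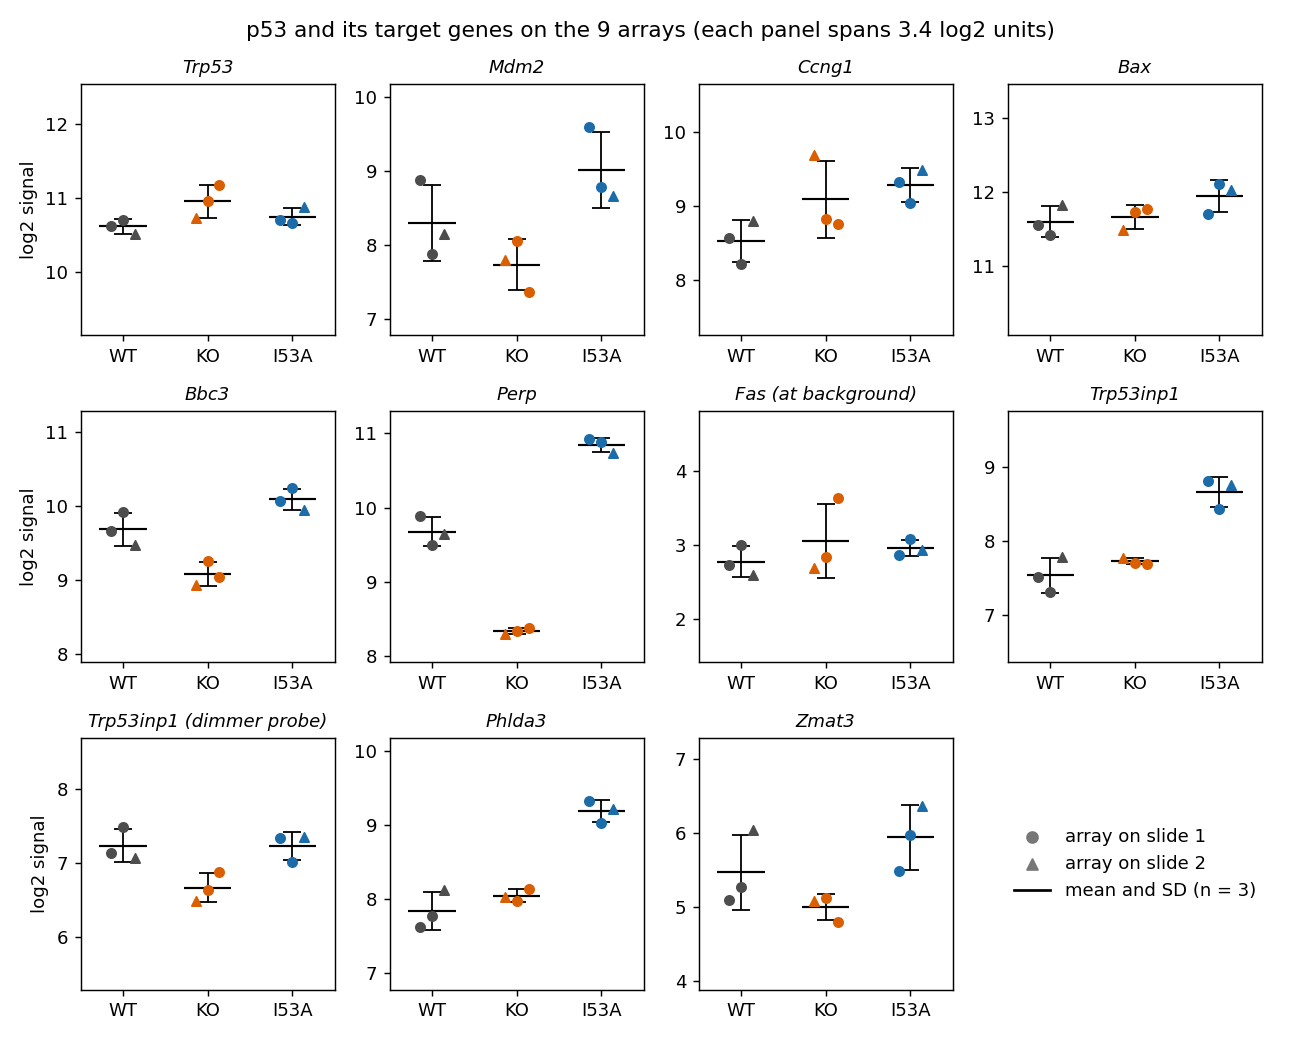
Log2 signal of Trp53 and its 9 target genes on each of the 9 arrays, 1 panel per probe, with the mean and SD of each group (n = 3) and the slide shown by the symbol; every panel spans the same log2 range. Perp reads 10.85 in I53A, 9.68 in WT and 8.33 in KO, whereas Phlda3 and the brighter Trp53inp1 probe stand apart in I53A alone and Fas stays at background.

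The inhibitors that p53 induces, Mdm2 and Ccng1, had higher means in I53A than in WT. Mdm2 (chromosome 10, 117688875 to 117710758), the ubiquitin ligase that degrades p53, read 8.87, 7.88 and 8.15 in WT, 7.79, 8.05 and 7.36 in KO and 9.60, 8.78 and 8.65 in I53A. WT 1 lay above I53A 2 and I53A 3, so WT and I53A overlapped, while each I53A array exceeded each KO array. The group means were 8.30 ± 0.51, 7.73 ± 0.35 and 9.01 ± 0.51, with a log2 difference of 0.71 for I53A against WT, −0.57 for KO against WT and 1.28 for I53A against KO (SE 0.35). With another background correction, normexp, the first of these was 0.03. Ccng1 (chromosome 11, 40748552 to 40755309) encodes cyclin G1, which works with protein phosphatase 2A to activate MDM2. It read 8.56, 8.22 and 8.80 in WT, 9.68, 8.82 and 8.76 in KO and 9.33, 9.04 and 9.49 in I53A. All I53A arrays lay above all WT arrays, and KO 1 was the highest of the 9 arrays. The log2 difference was 0.76 for I53A against WT and 0.56 for KO against WT (SE 0.30), so Ccng1 was the target whose KO mean stood closest to its I53A mean apart from Fas. Without KO 1 the KO difference was 0.26. Ccng1 lies on chromosome 11 too, whose median in KO was 0.26, and its part in this value was not tested.

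Among the mediators of apoptosis, Perp differed most and Fas was not measurable. Perp (chromosome 10, 18845071 to 18857073) encodes a membrane protein of desmosomes that takes part in p53-dependent apoptosis. It read 9.89, 9.49 and 9.64 in WT, 8.29, 8.33 and 8.37 in KO and 10.92, 10.88 and 10.74 in I53A. The 3 groups did not overlap anywhere, with KO lowest and I53A highest. The I53A mean of 10.85 ± 0.09 was 2.25-fold above the WT mean of 9.68 ± 0.20 (log2 difference 1.17, SE 0.20), and the KO mean of 8.33 ± 0.04 was 2.54-fold below WT (log2 difference −1.34). I53A against KO differed by 2.52 on the log2 scale, or 5.72-fold.

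Bbc3 (chromosome 7, 16308398 to 16318334) encodes PUMA, a protein that blocks the survival factors of the BCL2 family. Its signal was 9.66, 9.92 and 9.47 in WT, 8.93, 9.26 and 9.05 in KO and 10.07, 10.24 and 9.95 in I53A. The order was that of Perp, with no overlap between any groups and with smaller gaps. The log2 difference was 0.40 for I53A against WT, −0.61 for KO against WT and 1.01 for I53A against KO (SE 0.22).

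Bax (chromosome 7, 45461695 to 45466903), which opens the outer mitochondrial membrane, read 11.55, 11.42 and 11.82 in WT, 11.48, 11.73 and 11.77 in KO and 11.70, 12.11 and 12.02 in I53A. The groups overlapped in every comparison. The log2 difference was 0.35 for I53A against WT (SE 0.22) and 0.06 for KO against WT, with an SD of 0.21 in both WT and I53A. Fas (chromosome 19, 34290647 to 34327775), a death receptor at the cell surface, was not well above background on any of the 9 arrays. Its probe read from 2.59 to 3.00 in WT, from 2.69 to 3.63 in KO and from 2.86 to 3.08 in I53A, and no fold is given for it.

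Trp53inp1, Phlda3 and Zmat3 are targets that feed back on p53 or act on growth signals. Phlda3 (chromosome 1, 135766085 to 135769134) competes with the kinase AKT for membrane lipids. It read 7.62, 7.77 and 8.12 in WT, 8.02, 7.96 and 8.13 in KO and 9.32, 9.02 and 9.21 in I53A. The lowest I53A array lay 0.90 above the highest WT array, while the KO and WT arrays overlapped. The means were 7.84 ± 0.26 in WT, 8.04 ± 0.09 in KO and 9.18 ± 0.15 in I53A, 2.54-fold higher in I53A than in WT (log2 difference 1.35, SE 0.22) against a log2 difference of 0.20 in KO.

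Trp53inp1 (chromosome 4, 11156441 to 11174379) encodes a protein that aids the phosphorylation of p53 and has a role in autophagy. Its brighter probe read 7.52, 7.32 and 7.78 in WT, 7.78, 7.72 and 7.70 in KO and 8.81, 8.44 and 8.77 in I53A. Here too the I53A arrays lay above all others and KO overlapped WT, with a log2 difference of 1.13 for I53A against WT (SE 0.22) and 0.19 for KO against WT. The dimmer probe, which matches 2 more transcripts, read 7.14, 7.49 and 7.08 in WT, 6.49, 6.63 and 6.88 in KO and 7.34, 7.02 and 7.35 in I53A. On this probe I53A overlapped WT, with means of 7.24 ± 0.19 and 7.23 ± 0.22, and KO lay below WT on every array by 0.57 in the mean (SE 0.23). Both probes placed I53A above KO without overlap, by 0.94 on the brighter and 0.57 on the dimmer, so they disagreed on the position of WT.

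Zmat3 (chromosome 3, 32334792 to 32365665) encodes a zinc finger protein that binds RNA. Its probe was dim, above background on 2 of 3 WT, 2 of 3 KO and all 3 I53A arrays, and read 5.10, 5.27 and 6.05 in WT, 5.09, 5.13 and 4.81 in KO and 5.49, 5.98 and 6.37 in I53A. WT 3 lay among the I53A arrays, and KO stood below every I53A array. The log2 difference was 0.48 for I53A against WT, −0.47 for KO against WT and 0.94 for I53A against KO (SE 0.31).

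**Figure D2:**
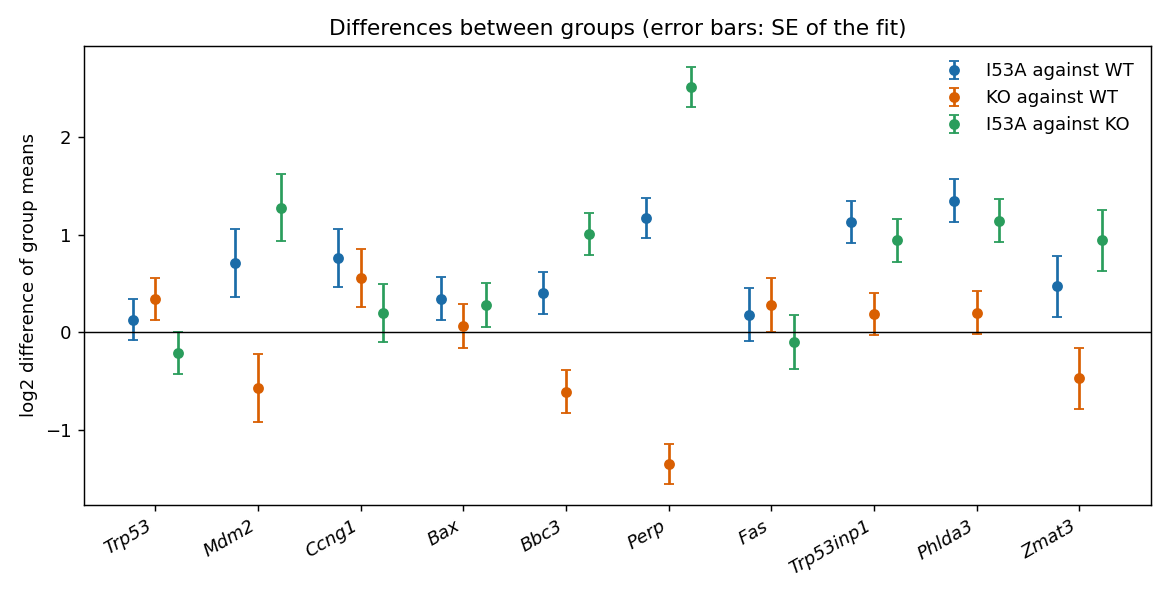
Log2 difference of group means with its standard error for Trp53 and the 9 targets (brightest probe) in the 3 comparisons; Fas is at background. I53A against WT lies above 0 for all 10 genes, from 0.13 for Trp53 to 1.35 for Phlda3, while KO against WT runs from −1.34 for Perp to 0.56 for Ccng1.

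Over the 9 targets together, the median log2 difference was 0.71 for I53A against WT, 0.06 for KO against WT and 0.94 for I53A against KO, where the medians over all genes were −0.00, −0.02 and 0.01. The comparisons share arrays, and these values are what the set was chosen for. In I53A against WT all 9 targets lay above 0, Fas at background included, and for 5 of them (Ccng1, Bbc3, Perp, Trp53inp1 and Phlda3) every I53A array exceeded every WT array, as held for 8.09% of all probes. None lay below WT on every I53A array (9.36%). In KO against WT 5 of 9 lay above 0, and no target had all KO arrays above all WT arrays (11.6% of all probes), while Bbc3 and Perp had all KO arrays below all WT arrays (12.6%). In I53A against KO 6 of 9 had every I53A array higher (7.45%), which were Mdm2, Bbc3, Perp, Trp53inp1, Phlda3 and Zmat3, and 0 had every I53A array lower (7.59%). At the study's thresholds, an adjusted p under 0.05 and more than 2-fold, Phlda3 alone was called higher in I53A against WT, where 0.235% of all probes were. This call was made under 3 of 17 alternatives and was lost under the other 14, among them normexp, 75th percentile scaling and the removal of any 1 of the 9 arrays. Perp alone was called lower in KO against WT (1.11% of all probes), and Perp and Phlda3 higher in I53A against KO (0.368%). The Perp calls held under 16 and 17 of 17 alternatives, the first being lost within slide 1, and that of Phlda3 against KO under 5 of 17, being lost without WT 1, without WT 2 and without any 1 KO or I53A array. Because the set was chosen with these contrasts, nothing is read from these counts.

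The mean of the 9 targets, set to 0 at the WT mean of each gene, was 0.01, −0.12 and 0.11 on the WT arrays, −0.18, −0.18 and −0.20 on the KO arrays and 0.74, 0.68 and 0.75 on the I53A arrays. The I53A mean was 0.73 ± 0.04 and the KO mean −0.19 ± 0.01. The KO mean includes Perp at −1.34, and the medians over the 9 targets were −0.12, 0.07 and 0.16 on the KO arrays. They were −0.02, −0.18 and 0.23 on the WT arrays and 0.80, 0.51 and 0.90 on the I53A arrays. On each I53A array all 9 targets exceeded their WT mean, as 3, 5 and 5 did on the KO arrays and 3, 2 and 5 on the WT arrays. Across the 9 arrays, which form 3 groups, the Pearson correlation of each target with the mean standardised signal of the other 8 targets was 0.94 for Phlda3, 0.93 for Trp53inp1 and 0.82 for Perp. It was between 0.62 and 0.69 for Bax, Zmat3, Bbc3 and Mdm2, 0.35 for Ccng1 and −0.12 for Fas. Trp53 itself had −0.15 with the mean of the targets.

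**Figure D3:**
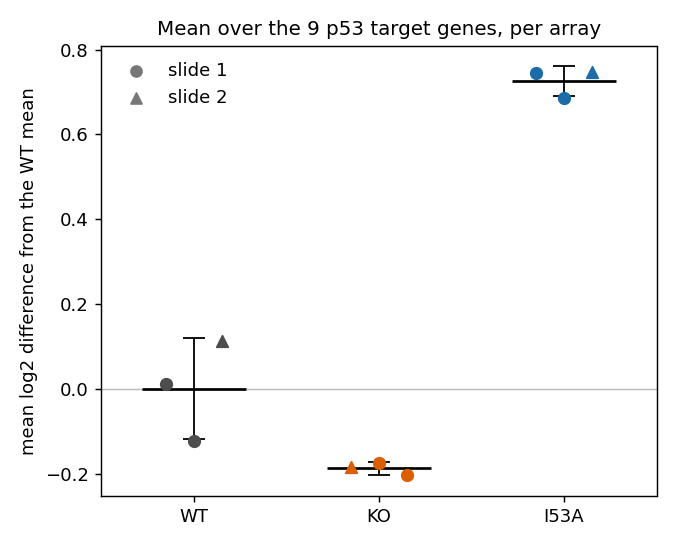
Mean over the 9 target genes of the log2 difference from each gene's WT mean, 1 point per array, with group mean and SD (n = 3) and the slide shown by the symbol. The I53A arrays lie at 0.68 to 0.75 on both slides, and the KO arrays at −0.20 to −0.18, just below the lowest WT array at −0.12. The KO means include Perp at −1.34, and the KO medians over the 9 targets, not drawn, run from −0.12 to 0.16.

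The genes outside the set whose pattern was most like the mean standardised signal of the 9 targets, among 9014 genes above background on all 9 arrays, were Pxdn (Pearson r 0.995), Emp3 (0.972), Serpine2 (0.967), Bcl2l11 (0.962) and Hes6 (0.952). These are the highest of 9014 values over 9 arrays and are given as a description. Pxdn, a peroxidase of the extracellular matrix, read 5.84 ± 0.08 in WT, 5.79 ± 0.08 in KO and 6.39 ± 0.04 in I53A. Bcl2l11, which encodes the apoptosis activator BIM, had a log2 difference of 0.84 in I53A and 0.11 in KO, both against WT. Serpine2, a secreted inhibitor of serine proteases, had 1.33 and 0.03. Hes6, a transcriptional regulator of the HES family, had 1.31 and −0.49, and the membrane protein gene Emp3 had 0.83 and −0.19. Of the other genes of the p53 pathway, 42 were in this comparison, with r above 0 for 27 and below 0 for 15 and a median of 0.24. Over all 9014 genes, r passed 0 between rank 4286 (r 0.05) and rank 4819 (r −0.01). The pathway genes ran from Sesn2, which encodes a stress-induced sestrin (r 0.93, rank 12 of 9014), to the checkpoint kinase gene Atr (−0.76, rank 8916). Cdkn1a, for p21, had −0.67 on its brightest probe (rank 8774), Gls2 −0.61 and Npm1 −0.75.

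The rest of the pathway was read from a list of 65 further genes, 59 of them with a probe, of which 41 are p53 targets, 16 act upstream of p53 and 2 belong to its family. None was called in I53A against WT by limma, where 0.235% of all probes were called higher and 0.0928% lower. With the unadjusted p held under 0.05, 17 of the 59 lay higher and 2 of them lower in I53A, against 5.37% and 3.83% of all probes. Of the 41 further targets alone, 15 lay higher and 0 below WT at this unadjusted level, 32 of 41 lay above 0, and the median log2 difference was 0.41, with −0.00 over all genes. In KO against WT 3 of the 59 genes were called higher and 0 lower, against 2.73% and 1.11% of all probes, and an unadjusted p under 0.05 was reached by 11 above and 3 below WT, against 9.64% and 7.77%. Of the 41 targets alone, 8 lay higher and 2 lower in KO at the unadjusted level, 24 of 41 lay above 0, and the median was 0.16. In I53A against KO none was called (0.368% and 0.958% of all probes), and 11 lay above and 6 below KO at the unadjusted level, where 5.03% and 6.32% of all probes were. For the 41 targets these counts were 11 and 4, 26 of 41 lay above 0, and the median was 0.25. The list was drawn up with earlier results of these arrays known and is described by its counts.

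**Figure D4:**
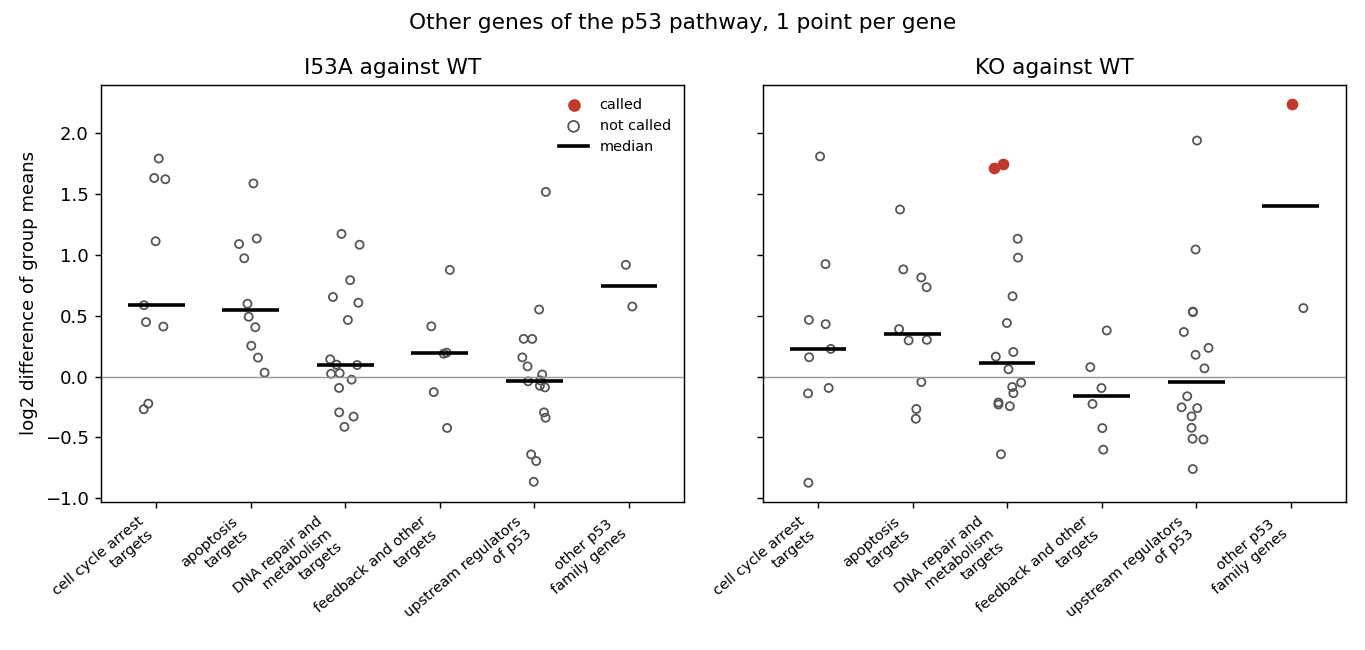
Log2 difference of group means for the 59 further genes of the p53 pathway with a probe, 1 point per gene, grouped by role, for I53A and KO against WT; black lines are group medians and filled points are called by limma (adjusted p under 0.05 and more than 2-fold). The median of the apoptosis targets is 0.54 in I53A and that of the upstream regulators −0.04, and the 3 filled points in KO are Ephx1, Dglucy and Trp63.

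Among 9 measured targets of cell cycle arrest, 4 were higher in I53A than in WT at an unadjusted p under 0.05 and none was called. These were Btg2, Plk2, Gtse1 and Rprm, named after their values were seen, and each was at background on 1 or more of the 3 WT arrays. Gtse1 was above background on only 1 I53A array and on no WT or KO array. Cdkn1a, which encodes the cyclin-dependent kinase inhibitor p21 and is the best known p53 target, was read by 3 probes that disagreed. The brightest read 6.77, 6.52 and 6.61 in WT, 7.06, 7.04 and 7.19 in KO and 5.96, 6.60 and 6.53 in I53A. I53A overlapped WT (log2 difference −0.27, limma adjusted p 0.776, from 0.645 to 0.990 over the alternatives), and KO lay above WT without passing the test (0.47, adjusted p 0.343, range 0.0624 to 0.575). On the next probe the difference was 1.06 for I53A against WT (limma adjusted p 0.0999) and 1.00 for KO against WT (adjusted p 0.0334), which fell just under the 2-fold threshold. The dimmest gave 0.19 and 0.52.

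All 10 measured targets of apoptosis had a higher mean in I53A than in WT, with a median of 0.54, and 5 of them reached an unadjusted p under 0.05, none after adjustment. Besides Pidd1 and Pmaip1 these were Apaf1, Trp53i11 and Eda2r, named after their values were seen. Pidd1, a scaffold for caspase activation, was read by 2 probes. The brighter read 7.26, 7.10 and 6.28 in WT, 7.45, 7.72 and 7.92 in KO and 8.17, 8.31 and 8.92 in I53A. The 3 groups did not overlap, with KO between the others. The difference in I53A was 1.59 (SE 0.31, limma adjusted p 0.0856), and over the alternatives the adjusted p ran from 0.0231 to 0.415. On the dimmer probe the difference was 0.58 in I53A (limma adjusted p 0.579) and 0.15 in KO (adjusted p 0.841). Pmaip1, which encodes the BCL2-family inhibitor NOXA, was above background on 1 WT array and on all KO and I53A arrays, with differences of 1.09 in I53A (adjusted p 0.18, range 0.0581 to 0.551) and 0.73 in KO (0.19, range 0.0588 to 0.431). Eda2r, a receptor of the tumour necrosis factor family, had no WT array above background and read 2.19-fold above that background signal in I53A (limma adjusted p 0.268). In KO it was above background on all 3 arrays and read 1.84-fold above the WT signal (limma adjusted p 0.194). Its KO arrays overlapped both the WT and the I53A arrays. Trp53i13 read from 4.86 to 7.54 within I53A and from 6.40 to 8.07 in KO, and its difference of −0.97 for I53A against KO (limma adjusted p 0.629, range 0.321 to 0.937) was smaller than the I53A SD of 1.34.

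Of 16 targets in DNA repair and metabolism, 2 were called higher in KO. Ephx1, an epoxide hydrolase that detoxifies foreign compounds, read 7.18 ± 0.33 in WT, 8.89 ± 0.12 in KO and 8.35 ± 0.25 in I53A. All mutant arrays exceeded all WT arrays and KO lay highest. The KO difference was 1.71 (SE 0.24, limma adjusted p 0.00343, range 0.00064 to 0.0576), and the I53A difference was 1.17 (adjusted p 0.0971, range 0.0262 to 0.438). Dglucy, a mitochondrial D-glutamate cyclase, read at background in each of the 3 WT samples. Against that background signal it read 3.34-fold higher in KO (limma adjusted p 0.0032, range 0.000601 to 0.212) and 1.73-fold higher in I53A (adjusted p 0.31, range 0.122 to 0.908). On the 6 arrays of slide 1 alone both KO calls were lost (limma adjusted p 0.0576 for Ephx1 and 0.058 for Dglucy) while the fitted log2 differences were 1.88 and 1.73, close to the 1.71 and 1.74 of all 9 arrays. With normexp the difference of Dglucy was 0.68 and its call was lost. Both genes stood highest in KO, where Phlda3 and Perp stood highest in I53A. Of the 16 genes, 5 were higher in I53A at an unadjusted p under 0.05, and the median was 0.10. Of the 6 targets in feedback and other roles, 1 was, Zfp365 (0.88, named after its value was seen).

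The 16 measured upstream regulators of p53 had a median of −0.04 in I53A and −0.05 in KO against WT, and none was called on its brightest probe. Mdm4, the partner of MDM2 that blocks p53, was above background on 1 of 3 WT arrays and differed by 1.04 in KO (limma adjusted p 0.0786, range 0.0288 to 0.254) and 0.55 in I53A (adjusted p 0.633, range 0.398 to 0.882). Cdkn2a encodes ARF, which restrains MDM2, and the inhibitor p16. Its brighter probe read 9.05, 9.32 and 9.97 in WT, 11.70, 10.24 and 12.22 in KO and 10.24, 11.73 and 10.92 in I53A. Every mutant array lay above every WT array, and the mutants overlapped each other. The difference of 1.94 in KO (limma adjusted p 0.0729, range 0.000952 to 0.271) and of 1.52 in I53A (adjusted p 0.382, range 0.00588 to 0.726) did not pass the test, whereas the dimmer probe, with means of 2.95 in WT, 5.76 in KO and 5.14 in I53A, was called higher in both (limma adjusted p 0.00228 and 0.0454). Npm1, a nucleolar protein that binds ARF, had a difference of −1.06 for I53A against KO (limma adjusted p 0.19, range 0.0767 to 0.455) and lies on chromosome 11, as does Trp53i13.

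Of the family members, Trp63, the gene for the p53 homologue p63, was called higher in KO. Its brightest probe read 7.44, 7.28 and 7.83 in WT, 10.19, 9.24 and 9.84 in KO and 7.94, 8.58 and 8.79 in I53A. KO lay above I53A and I53A above WT, with no overlap. The KO difference was 2.24 (SE 0.32, limma adjusted p 0.00343, range 0.000699 to 0.241), and the I53A difference of 0.92 (adjusted p 0.383, range 0.172 to 0.996) did not pass the test. The call rests on 1 of 4 probes, as the means of the other 3 stayed between 2.43 and 3.14 in all groups, and it was lost with the mean of all 4 probes.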

How the data were processed

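Per the labels, polyadenylated RNA was labelled with Cy3 and hybridised to 9 Agilent SurePrint G3 arrays, 3 per group. The authors' deposited scan files hold a processed fluorescence intensity per spot on a linear scale, background-subtracted by Agilent Feature Extraction, with flags for outlier, saturated and dim spots. The deposited series table holds log2 values that the authors averaged over repeated probes and quantile normalised, for 30170 probes that map to 1 Ensembl gene (mm10), and their own log2 fold changes and p-values, which were not used here.

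Intensities were taken as log2 after control and outlier spots were left out, spots of 1 probe were averaged, and quantile normalisation ran over 55681 probes of the 9 arrays in R 4.3.3. limma 3.58.1 (1 mean per group, 6 residual degrees of freedom, two-sided moderated tests, Benjamini-Hochberg adjustment over all tested probes) gave differences, standard errors and adjusted p-values. Called means an adjusted p under 0.05 with more than 2-fold. The brightest probe of a gene was used. Of the probes tested, 26821 had 1 gene symbol, 19 several and 3330 none. Names and sequences came from RefSeq (GRCm38.p6). Where a group was at background on every array, the fold is taken against the higher of its own signal and the background limit. For Eda2r and Dglucy this was the WT signal itself, so their folds are those observed and carry the same uncertainty. The number of arrays limits the precision.

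The p53 genes, the other lists and the markers were chosen with earlier results of these data known. Named besides the p53 genes were pathway genes called in any comparison, Cdkn1a, Pmaip1, Mdm4 and Cdkn2a, the 3 genes above background with the largest difference in each comparison, and the 5 genes most like the target mean, others being marked as named after their values were seen. Samples were grouped and numbered by their titles. A second label gives number 1 to each of the 3 KO samples. Over all 3 groups, samples of the same number did not deviate together, with correlations of −0.365 to 0.334 against −0.224 to 0.387 for other pairs, so no block was used. Between WT and I53A alone, the pairs of the same number had 0.33, 0.07 and 0.18, and the other pairs reached at most 0.06. These same-number pairs also shared a slide. WT 1 with I53A 2 and WT 2 with I53A 1, which shared slide 1 but not the number, had −0.14 and −0.08. The parts of number and slide were not tested. The normexp alternative (offset 50) used median spot and median background intensities. Other alternatives were 75th percentile scaling, the deposited log2 values, leaving out dim probes, slide as a block, slide 1 alone, a replicate block, the mean of all probes and leaving out each array. The limma step was tested on simulated data.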

Additional observations from a re-analysis of the deposited data

How the results depend on the processing

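Of 507 alternative values of the members' differences, 477 moved by less than 1 SD between arrays and 30 by more. Of 30 member comparisons 24 kept their sign under every alternative, and the 6 that did not were Fas in all 3, Bax and Trp53inp1 in KO against WT and Ccng1 in I53A against KO. With normexp the I53A difference from WT was 0.65 for Perp and 0.97 for Phlda3, which is under 2-fold, and the mean of both probes gave 0.57 for Trp53inp1. The median of the 9 targets in I53A against WT was 0.50 with normexp (0.71 as reported). In KO against WT, reported at 0.06, it was −0.20 without dim probes, 0.27 within slide 1 and −0.19 with the mean of all probes, so its sign is not settled. In I53A against KO, reported at 0.94, it was 0.75 with 75th percentile scaling, 0.56 with normexp and from 0.90 to 1.00 when an array was left out. The causes were not tested.

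Of the other pathway genes, 2 were called higher in I53A against WT with normexp (Cdkn2a and Pidd1), 2 without dim probes (Ephx1 and Pidd1), 2 with the mean of all probes (Cdkn2a and Eda2r) and 1 with slide as a block (Gtse1). In KO against WT 6 were called higher without dim probes (Cdkn2a, Dglucy, Ephx1, Mdm4, Plk3 and Trp63) and 1 within slide 1 (Trp63). In I53A against KO, Gtse1 was the 1 gene called higher with slide as a block and without KO 1, so that leaving out an array gave 0 to 1, and Trp63 the 1 gene called lower without dim probes.

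The replicate numbers did not pair the samples over all 3 groups, though WT and I53A samples of the same number correlated more than other WT and I53A pairs. With a replicate block the target medians stayed at 0.71, 0.06 and 0.94, and the pathway genes called higher in KO were 4. Over all probes the block left 19 higher and 6 lower in I53A against WT (71 and 28 as reported), 584 and 213 in KO against WT (824 and 335) and 31 and 163 in I53A against KO (111 and 289). With normexp these counts were 25 and 21, 232 and 92, and 31 and 101, within slide 1 they were 1 and 1, 290 and 42, and 2 and 61, and without dim probes 182 and 84, 896 and 373, and 180 and 399. With 75th percentile scaling 35 and 9 were called in I53A against WT. Leaving out WT 1 gave 16 and 6 in I53A against WT. Scaling moved the median of all probes by less than 0.1.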
